A study of Saccharomyces cerevisiae BY4741 with 6 samples.

Results

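Genes for building peroxisomes and for carrying fatty acids into them were followed in nascent transcription of budding yeast. The set took every gene of the count table named PEX with a number, plus POX1, FOX2, POT1, FAA2, PXA1, PXA2, ANT1, CTA1, OAF1 and PIP2. Of 39 such genes in the reference annotation the table holds 30, namely 26 PEX genes with FAA2, ANT1, OAF1 and PIP2, among 5219 genes in all. PEX4, PEX9, PEX18, POX1, FOX2, POT1, CTA1, PXA1 and PXA2 were not analysed here, so the set describes peroxisome assembly, fatty acid activation and the activators rather than the enzymes of beta-oxidation. All 30 passed the filter on low counts, a mean of at least 10 counts over the libraries.

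Nascent transcripts were measured by NET-seq, which sequences the RNA held by RNA polymerase II after the polymerase is pulled down. Both strains were BY4741, a laboratory strain of mating type a, with RPB3-3xFLAG, a tagged polymerase subunit (labelled RPB3-3xFLAG-His3MX6 in the wild type and RPB3-3xFLAG-HisMX6 in the other strain). The second strain also carried spp1::KanMX6, a deletion of SPP1, which encodes a subunit of the histone H3 lysine 4 methyltransferase COMPASS. Each was sampled in log phase in glucose medium (YPD) and 15 and 60 min after resuspension in galactose medium (YPG), giving 6 libraries with 1 per strain and condition. The labels describe centrifugation for the galactose cultures, and handling and sugar cannot be told apart. They do not say how many isolates of a strain were used.

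Peroxisomes are the only site of fatty acid beta-oxidation in budding yeast, and the organelle is small and sparse in glucose and multiplies on fatty acids such as oleate. Matrix proteins are recognised in the cytosol by the receptors Pex5 and Pex7, dock at Pex13, Pex14 and Pex17, and pass the membrane. The receptors are then ubiquitinated by RING ligases such as Pex2 and Pex10 and pulled out by an ATPase complex that includes Pex6. Oaf1 and Pip2 form the zinc-cluster activator that switches on many of these genes on oleate, and glucose represses part of the same set through the Snf1 and Adr1 route. No fatty acid was added here according to the labels.

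Library totals ran from 1162190 to 4167249 counts. SPP1 itself held 324, 69 and 131 counts in the wild-type libraries in glucose and at 15 and 60 min, and 1, 0 and 0 in the deletion libraries. Of the a-cell markers, AGA2, MFA1, MFA2 and STE2 held between 75 and 4056 counts in each library, whereas the alpha-cell gene STE3 held between 1 and 22 and SAG1 between 17 and 54. Changes and differences below come from edgeR's quasi-likelihood test over 5186 genes with Benjamini-Hochberg adjustment over all of them, in 1 fit with condition and genotype as additive terms. A gene is called when its adjusted p is under 0.05. Such a call concerns the average change over both strains, or the average difference over the conditions, and does not show that each strain or condition moved. With 1 library per strain and condition, the p-values measure how far single libraries depart from the additive fit, not spread between replicates. The fit left 2 residual degrees of freedom per gene, moderated with 13.01 prior degrees of freedom estimated across genes. The value after ± is an approximate standard error, taken from the log2 value and its quasi-likelihood F statistic. Because most genes of the table moved, every rise or fall is relative to the rest of the library.

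In wild-type glucose cells the levels of the 30 genes ran from 16.4 to 131 CPM (counts scaled to library totals times TMM factors), with a median of 78.7. At 15 and 60 min the wild-type medians were 101 and 106 CPM. In the deletion the medians were 74.9 CPM in glucose and 101 and 99.7 CPM at 15 and 60 min. The summed level of the 30 was 2366 CPM in wild-type glucose, 3335 at 15 min and 3162 at 60 min, beside 2334, 3373 and 3270 CPM in the deletion. The sum was thus higher in each galactose library than in either glucose library.

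Per kilobase of gene, PEX34, which encodes a membrane protein of peroxisome proliferation, was highest in wild-type glucose, at 243 CPM per kb (exact 95% counting interval 215 to 273). PEX10 (108), PEX2 (108), PEX17 (101) and PEX19 (98.1) followed, and the intervals of these neighbours overlap. The lowest were FAA2 at 7.32 CPM per kb (5.28 to 9.90), PIP2 at 16.0 (13.3 to 19.1) and OAF1 at 25.2 (21.8 to 28.9), whose intervals do not overlap each other. The counting intervals given here and below cover counting error only. The members lie on 14 chromosomes, 15 on each strand, and are 435 to 3144 bp long. None shares its span with another gene of the table, and none lies in the right part of chromosome XI, beginning at MTC2, whose counts an earlier analysis of these data put in doubt. FAA2 overlaps BUD25, which was not analysed here, and the strand setting of the counting is not given in the sources used here.

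The transfer from glucose to galactose was the first comparison. FAA2, which encodes the medium-chain acyl-CoA synthetase of the peroxisome, rose most among the members, and PEX21, which encodes a cofactor of Pex7, fell most. At 15 min 14 of the 30 members were called higher and 4 lower, with a median log2 change of 0.33 over members and -0.01 over all genes tested. At 60 min 16 were higher and 4 lower, with a median of 0.42 beside -0.02. The share called was 60% of members against 75.2% of all genes at 15 min, and 66.7% against 66.2% at 60 min. Genes called higher made up 37.1% and 32.3% of all genes at these times, and genes called lower 38.1% and 33.9%. Both comparisons use the same glucose libraries.

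**Figure D1:**
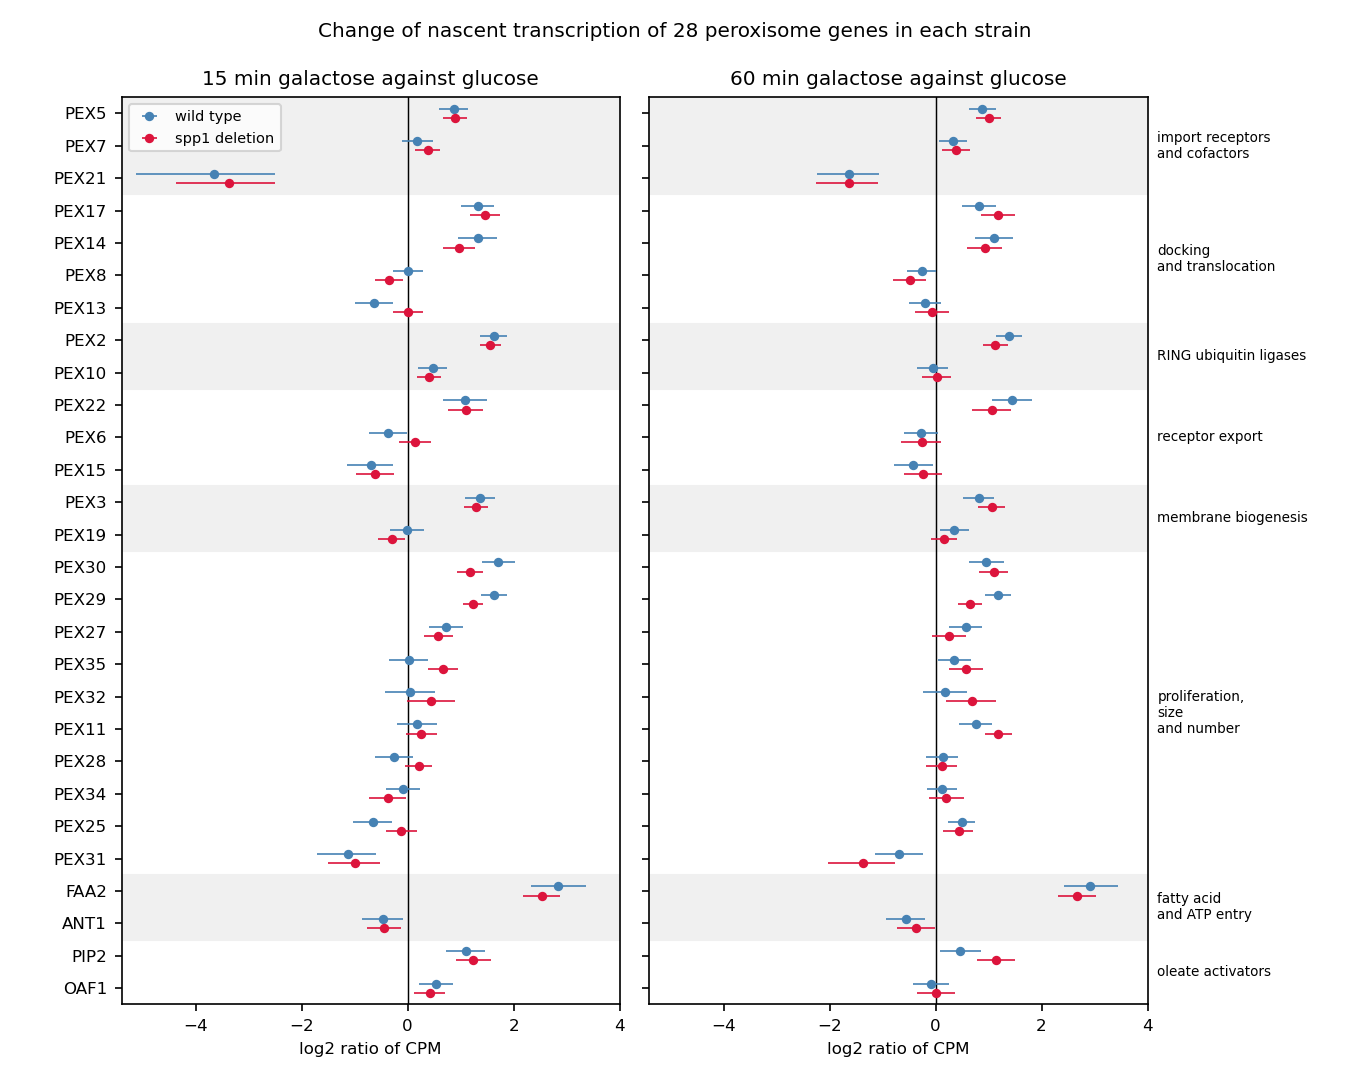
Log2 ratio of CPM in galactose over glucose (x axis) for 28 of the 30 genes (rows, grouped by role in shaded bands), with the wild type in blue and the spp1 deletion in red, at 15 min (left) and 60 min (right); bars are exact 95% counting intervals of 1 library pair. FAA2 lies farthest right and PEX21 farthest left in both strains and at both times.

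FAA2 (YER015W, chromosome V, 184541 to 186775, assembly R64) held 42, 142 and 192 counts in the wild type in glucose and at 15 and 60 min, and 101, 226 and 191 in the deletion. Its levels were 16.4, 116 and 124 CPM in the wild type and 24.8, 143 and 157 CPM in the deletion. All 4 galactose libraries lie far above both glucose libraries. The rise was 2.64 ± 0.17 on the log2 scale at 15 min and 2.76 ± 0.17 at 60 min (edgeR adjusted p = 8.52e-10 and 1.06e-09), or 6.25-fold and 6.76-fold. From 15 to 60 min it moved by 0.11 (adjusted p = 0.582). ANT1 (YPR128C), which encodes the peroxisomal carrier that brings in ATP for such synthetases, went the other way. Its levels were 83.8, 60.6 and 56.7 CPM in the wild type and 88.5, 65.2 and 68.9 CPM in the deletion. ANT1 fell by 0.45 and 0.46 on the log2 scale (edgeR adjusted p = 0.0165 and 0.0177). At 15 min ANT1 lost its call without the wild-type or deletion glucose library or either 15 min library (adjusted p up to 0.117), and at 60 min without either glucose library or the wild-type 60 min library (up to 0.172), and DESeq2 called neither (adjusted p = 0.145 and 0.150).

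Both genes of the oleate activator rose at 15 min. PIP2 (YOR363C, chromosome XV, 1020222 to 1023212) stood at 47.9, 102 and 66.4 CPM in the wild type and 39.5, 93.0 and 87.0 CPM in the deletion. It rose by 1.17 ± 0.18 at 15 min and 0.81 ± 0.19 at 60 min (edgeR adjusted p = 2.08e-05 and 1.18e-03). OAF1 (YAL051W, chromosome I, 48564 to 51707) stood at 79.1, 115 and 74.7 CPM in the wild type and 71.6, 95.6 and 72.2 CPM in the deletion. It rose by 0.48 ± 0.15 at 15 min (adjusted p = 8.41e-03), was at -0.04 at 60 min against glucose (adjusted p = 0.831), and fell by 0.51 from 15 to 60 min (adjusted p = 0.0211). The 60 min libraries of OAF1 thus lie among the glucose libraries, and the PIP2 libraries do not. The call of PIP2 at 60 min rested on the deletion, without whose 60 min library the change was 0.51 (edgeR adjusted p = 0.0554). The rise of OAF1 at 15 min was not called without either glucose library or the wild-type 15 min library (adjusted p up to 0.0900) or by DESeq2 (0.0826). Its later fall was not called without the wild-type 15 or 60 min library (up to 0.181), by DESeq2 (0.152) or with library totals or upper-quartile factors as the scaling (0.0934 and 0.0543).

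Of the 3 measured genes for import receptors and their cofactors, PEX5 rose and PEX21 fell at both times. PEX5, which encodes the receptor for the most common targeting signal of matrix proteins, stood at 93.5, 170 and 172 CPM in the wild type and 94.1, 176 and 189 CPM in the deletion. Its rise was 0.89 ± 0.13 and 0.94 ± 0.13 (edgeR adjusted p = 1.38e-05 and 9.69e-06). PEX7, the receptor gene for the second signal, was at 0.29 at 15 min (adjusted p = 0.0673) and rose by 0.36 at 60 min (adjusted p = 0.0280), a call lost without either glucose library, without either 60 min library (adjusted p up to 0.212) and in DESeq2 (0.188). PEX21 (YGR239C, chromosome VII, 969187 to 970053) encodes a cofactor of Pex7 in import. PEX21 held 159, 6 and 31 counts in the 3 wild-type libraries, taken as before from glucose to 60 min, and 292, 11 and 28 in the deletion libraries. Its levels were 62.0, 4.92 and 20.0 CPM in the wild type and 71.6, 6.96 and 23.0 CPM in the deletion. Every galactose library of PEX21 lies under both glucose libraries, and the 15 min libraries are the lowest.

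The fall of PEX21 was -3.46 ± 0.29 on the log2 scale at 15 min, 11.0-fold, and -1.63 ± 0.22 at 60 min, 3.10-fold (edgeR adjusted p = 1.95e-08 and 8.79e-06). From 15 to 60 min it rose by 1.83 ± 0.37 (adjusted p = 1.17e-03). In library pairs the later rise was 4.06-fold in the wild type (log2 2.02, exact 95% counting interval 0.74 to 3.57) and 3.30-fold in the deletion (log2 1.72, 0.67 to 2.88). Its values at 15 min rest on the fewest counts of any member. Its paralog PEX18 was not analysed here.

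**Figure D2:**
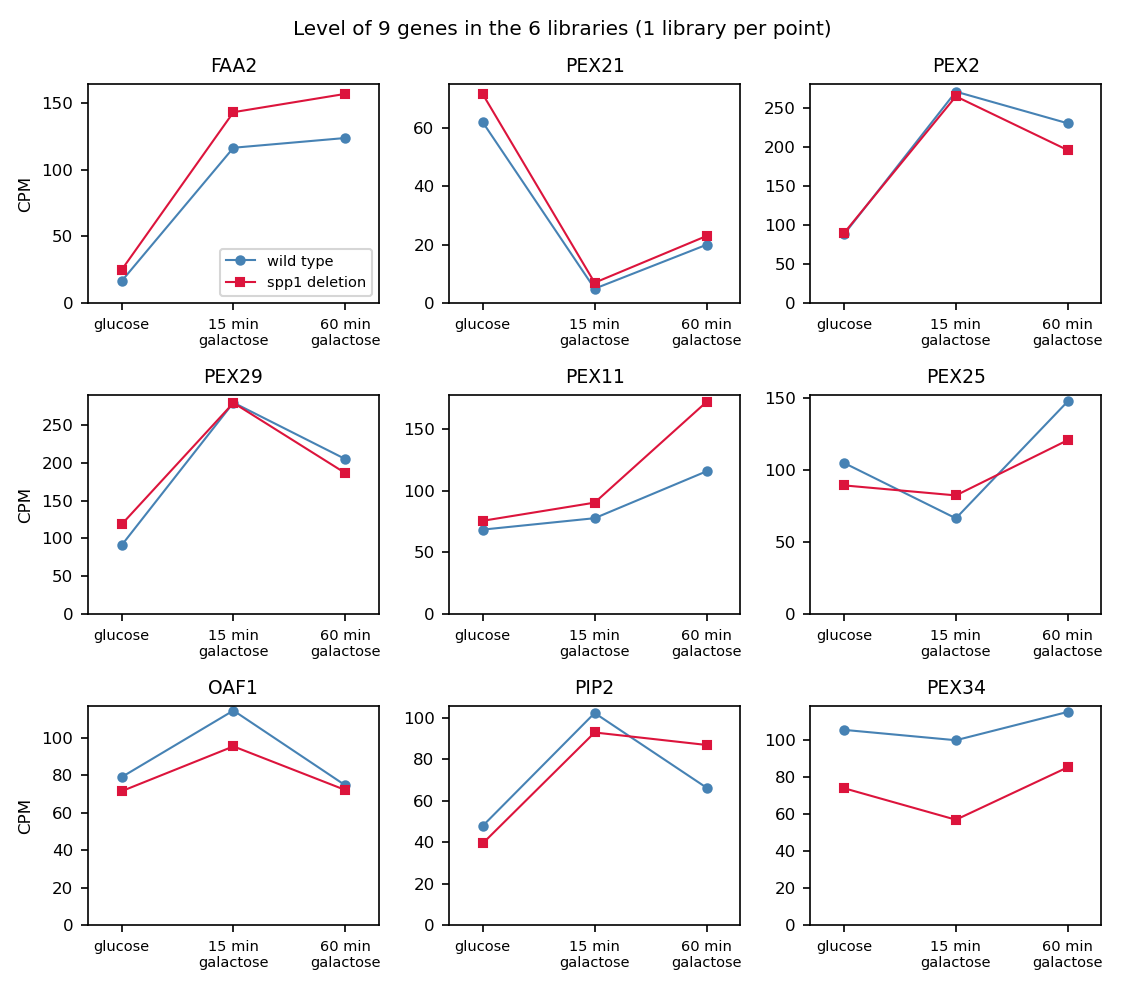
Level in CPM (y axis from 0) of 9 genes in the 6 libraries, wild type in blue circles and spp1 deletion in red squares, in glucose and at 15 and 60 min in galactose (x axis); each point is 1 library, with no error bar. PEX21 drops from 62.0 and 71.6 CPM to 4.92 and 6.96 CPM at 15 min, while FAA2 climbs from 16.4 and 24.8 CPM to 116 and 143 CPM, and PEX34 is lower in the deletion in all 3 conditions.

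The genes of docking and translocation did not share a direction. PEX14 and PEX17 rose at both times, PEX8 fell at 60 min, and PEX13 passed neither test. PEX17 (YNL214W), which encodes a peripheral partner of Pex14, stood at 60.4, 151 and 106 CPM in the wild type and 51.0, 140 and 116 CPM in the deletion. It rose by 1.39 ± 0.15 and 1.00 ± 0.15 (edgeR adjusted p = 4.53e-07 and 3.43e-05). PEX14, the central docking protein gene, stood at 46.0, 115 and 98.6 CPM in the wild type and 53.9, 106 and 103 CPM in the deletion. It rose by 1.13 ± 0.16 and 1.00 ± 0.16 (adjusted p = 7.72e-06 and 4.35e-05). PEX13, whose product carries an SH3 domain that binds Pex14, was at -0.28 and -0.12 (adjusted p = 0.143 and 0.521). At 15 min PEX13 was called lower without the deletion's 15 min library (log2 -0.61, adjusted p = 0.0142) and with upper-quartile scaling (log2 -0.40, adjusted p = 0.0343), a scaling that moved all genes by a median of -0.13 at that time. PEX8, which encodes a protein on the matrix side that links docking to the RING ligases, was at -0.17 at 15 min (adjusted p = 0.282) and fell by 0.38 at 60 min (adjusted p = 0.0328). That call of PEX8 was lost without either 60 min library or the deletion glucose library (adjusted p up to 0.300), in DESeq2 (0.191) and with library totals (0.0854).

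The RING ligase gene PEX2 (YJL210W, chromosome X, 36919 to 37734) rose at both times. It held 226, 331 and 358 counts in the wild type and 366, 419 and 239 in the deletion, or 88.1, 271 and 231 CPM and 89.7, 265 and 196 CPM. Its rise was 1.59 ± 0.13 at 15 min and 1.26 ± 0.13 at 60 min (edgeR adjusted p = 1.73e-08 and 5.20e-07). By CPM per kb PEX2 was the highest member in both 15 min libraries, at 332 and 325. PEX10 rose by 0.43 at 15 min (adjusted p = 7.24e-03), was at -0.02 at 60 min (adjusted p = 0.924) and fell by 0.45 from 15 to 60 min (adjusted p = 0.0210). The rise of PEX10 was not called without either glucose library or the wild-type 15 min library (adjusted p up to 0.0647) or by DESeq2 (0.0767). Its later fall was not called without the wild-type 15 or 60 min library (up to 0.152), by DESeq2 (0.158) or with library totals or upper-quartile factors (0.114 and 0.0621).

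The receptor export genes divided as well. PEX22, which encodes the membrane anchor of the ubiquitin-conjugating enzyme Pex4, rose by 1.09 ± 0.17 and 1.25 ± 0.17 (edgeR adjusted p = 2.70e-05 and 7.61e-06), from 38.2 and 41.4 CPM in glucose to between 81.1 and 104 CPM in galactose. The ATPase gene PEX6 was at -0.09 and -0.26 (adjusted p = 0.641 and 0.194). PEX15, which encodes the membrane anchor of the ATPase complex, fell by 0.65 ± 0.17 at 15 min (adjusted p = 2.30e-03) and was at -0.32 at 60 min (adjusted p = 0.0859). Of the pair that inserts peroxisomal membrane proteins, PEX3 rose by 1.32 ± 0.14 and 0.94 ± 0.14 (adjusted p = 2.82e-07 and 2.49e-05). PEX19, its cytosolic chaperone partner, was at -0.17 and 0.25 (adjusted p = 0.286 and 0.121). With library totals as the scaling PEX19 was called higher at 60 min (log2 0.33, adjusted p = 0.0414). That scaling moved all genes by a median of 0.083 at that time.

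The 10 measured genes of peroxisome proliferation, size and number held 3 that rose and 1 that fell at 15 min, and 6 that rose and 1 that fell at 60 min. That is 40% and 70% of them called, beside 75.2% and 66.2% of all genes. PEX30 (YLR324W) and PEX31 (YGR004W) encode related proteins of the endoplasmic reticulum membrane, where peroxisomes form, and PEX32 belongs to the same family. PEX30 stood at 55.7, 182 and 108 CPM in the wild type and 73.3, 166 and 157 CPM in the deletion, and rose by 1.43 ± 0.16 and 1.02 ± 0.17 (edgeR adjusted p = 9.19e-07 and 6.35e-05). PEX31 stood at 61.2, 27.9 and 38.0 CPM in the wild type and 52.9, 26.6 and 20.5 CPM in the deletion, and fell by 1.06 ± 0.23 and 0.96 ± 0.23 on the log2 scale (adjusted p = 6.24e-04 and 1.62e-03). PEX32 was at 0.25 and 0.42 (adjusted p = 0.295 and 0.0879), and was called higher at 60 min with library totals (log2 0.50, adjusted p = 0.0456). Per kilobase PEX30 stood at 35.4 and 46.6 CPM per kb in glucose, beside 44.0 and 38.1 for PEX31. In galactose PEX30 stood between 68.8 and 116 CPM per kb and PEX31 between 14.8 and 27.4, so that the genes overlap in glucose and not in galactose. Treatment of reads shared by similar genes is not given in the sources used here, so values of such relatives are uncertain.

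PEX29 rose by 1.41 ± 0.14 and 0.90 ± 0.15 (edgeR adjusted p = 2.01e-07 and 5.04e-05) from 90.8 and 118 CPM in glucose to 279 CPM in both strains at 15 min, with 205 and 186 CPM at 60 min. PEX28, which encodes a protein similar to Pex29, was at 0.01 and 0.13 (adjusted p = 0.956 and 0.477). PEX11, PEX25 and PEX27 encode a family of membrane proteins that promote peroxisome division. PEX11 (YOL147C, chromosome XV, 47933 to 48643) stood at 68.6, 77.9 and 116 CPM in the wild type and 75.7, 90.5 and 172 CPM in the deletion. It was at 0.22 at 15 min (adjusted p = 0.223) and rose by 0.98 ± 0.15 at 60 min (adjusted p = 3.18e-05), and the rise from 15 to 60 min was 0.76 ± 0.16 (adjusted p = 1.82e-03). Both 60 min libraries of PEX11 lie above the other 4.

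PEX25 (YPL112C, chromosome XVI, 337436 to 338620) rose at 60 min. Its levels were 105, 66.4 and 148 CPM in the wild type and 89.2, 82.3 and 121 CPM in the deletion, with both 60 min libraries highest. At 15 min it was at -0.36 (edgeR adjusted p = 0.0636), at 60 min it rose by 0.47 (adjusted p = 0.0137), and from 15 to 60 min it rose by 0.83 ± 0.17 (adjusted p = 1.55e-03). The call at 60 min against glucose was lost without the wild-type 60 min or the deletion glucose library (adjusted p up to 0.174) and in DESeq2 (0.108). At 15 min PEX25 was called lower without the deletion 15 min library (log2 -0.69) and without either 60 min library. With both 60 min libraries left out its change was -0.36, as in the main fit, so that call did not come with a larger fall. It was also called lower with library totals (log2 -0.43, adjusted p = 0.0287) or upper-quartile factors (log2 -0.48, adjusted p = 0.0128). PEX27 followed another course, up by 0.64 ± 0.15 at 15 min (adjusted p = 1.02e-03) and by 0.41 at 60 min (adjusted p = 0.0250). Its call at 60 min was lost without the wild-type glucose or 60 min library (adjusted p up to 0.285) and in DESeq2 (0.161). PEX35, a gene that affects peroxisome number, was at 0.38 at 15 min (adjusted p = 0.0572), and was called higher there without any 1 of the wild-type libraries or the deletion 60 min library (adjusted p down to 5.72e-03) and by limma (0.0436). It rose by 0.47 at 60 min (adjusted p = 0.0221), a call lost without the wild-type 60 min or the deletion glucose library (up to 0.332) and in DESeq2 (0.136). PEX34 was at -0.22 and 0.16 (adjusted p = 0.216 and 0.377).

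In all, 12 members were called higher at both times, 3 lower at both times, 2 higher and 1 lower at 15 min alone, 4 higher and 1 lower at 60 min alone, and 7 at neither. Over all genes 29.3% were called higher at both times, 30.8% lower at both, 7.58% higher and 6.86% lower at 15 min alone, 2.6% higher and 2.83% lower at 60 min alone, and 19.4% at neither, while 0.309% were higher and then lower and 0.444% lower and then higher, as 0 members were. The direct comparison of 60 with 15 min called 4 members higher (PEX21, PEX11, PEX25, PEX19) and 4 lower (PEX3, PEX10, PEX29, OAF1), 26.7% of the 30, where 36.5% of all genes were called (20.4% higher, 16.1% lower). PEX19 rose by 0.42 and PEX3 and PEX29 fell by 0.39 and 0.51 between these times (edgeR adjusted p = 0.0380, 0.0392 and 0.0114). For PEX7, PEX35, PEX8 and PEX15, called at 1 time alone, the difference between the times did not pass (adjusted p = 0.718, 0.706, 0.338 and 0.194). Of the 4 falls, the call of PEX3 was lost without 4 of the 6 libraries in turn, all but the deletion 15 and 60 min ones (adjusted p up to 0.376). The call of PEX29 was lost without the wild-type 15 min or the deletion 60 min library (up to 0.143), and that of PEX19 without the wild-type 60 min or either deletion galactose library (up to 0.277). DESeq2 called none of these 4 falls, nor PEX19. With library totals as the scaling, which moved all genes by a median of 0.15, 5 members were called higher and 0 lower, beside 1436 and 547 of all genes in place of 1056 and 835.

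**Figure D3:**
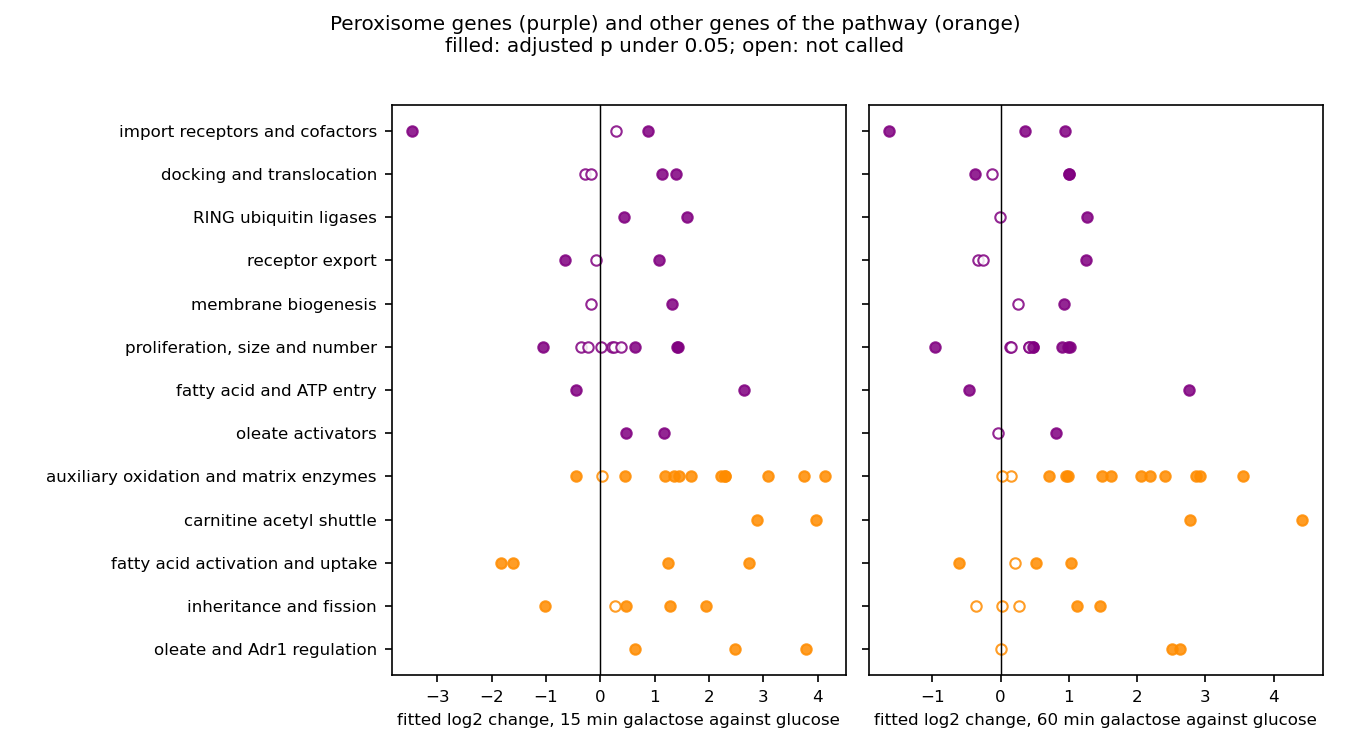
Fitted log2 change in galactose against glucose (x axis) at 15 min (left) and 60 min (right), with 1 point per gene, for 28 of the 30 members in 8 role groups in purple and 5 lists of other genes of the pathway in orange (rows); filled points have an edgeR adjusted p under 0.05 and open points do not. At 15 min the carnitine shuttle genes lie at 2.89 and 3.98 and the matrix enzymes have a median of 1.68, beside a median of 0.33 over the members; the axes of the panels differ in range.

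Other genes of the pathway were read from 5 lists with 32 genes, of which the table holds 27. SPS19, STR3, CAT2, YAT1 and OAF3 were not analysed here. Of the 27, 21 were called higher and 4 lower at 15 min, and 19 higher and 1 lower at 60 min (medians 1.44 and 1.12), beside 75.2% and 66.2% of all genes called in either direction. Among 13 auxiliary oxidation and matrix enzymes, 11 rose and 1 fell at 15 min, with a median of 1.68. The nicotinamidase gene PNC1 rose by 4.14 ± 0.22, the glycerol 3-phosphate dehydrogenase gene GPD1 by 3.75 ± 0.21, ECI1, the enoyl-CoA isomerase gene for unsaturated fatty acids, by 3.08 ± 0.22 and MDH3, the peroxisomal malate dehydrogenase gene, by 2.29 ± 0.16 (edgeR adjusted p = 8.85e-11, 1.45e-10, 3.11e-09 and 2.79e-09). The products of PNC1 and GPD1 are also found in the cytosol. ECI1 held 44, 226 and 176 counts in the wild type and 84, 221 and 205 in the deletion, so that each galactose library was above both glucose libraries on the CPM scale as well.

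Both measured genes for the carnitine route of acetyl units rose at 15 min, CRC1, the mitochondrial carnitine carrier gene, by 3.98 ± 0.38 and YAT2, a carnitine acetyltransferase gene, by 2.89 ± 0.27 (edgeR adjusted p = 1.28e-07 and 9.25e-08). CRC1 did so from 10 and 12 counts in glucose. ADR1, which encodes an activator of peroxisomal and alcohol oxidation genes, rose by 3.79 ± 0.19 at 15 min and fell by 1.16 ± 0.17 from 15 to 60 min (adjusted p = 5.31e-11 and 6.69e-05). MIG1, a glucose repressor gene, rose by 2.47 ± 0.16 and SNF1, the gene of the kinase that opposes it, by 0.63 ± 0.15 at 15 min (adjusted p = 1.45e-09 and 1.42e-03).

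The other acyl-CoA synthetase genes were called in both directions at 15 min. At 15 min FAA1 rose by 2.73 ± 0.16, while FAA4 fell by 1.83 ± 0.15 and FAA3 fell by 1.60 ± 0.17 on the log2 scale (edgeR adjusted p = 4.56e-10, 2.29e-08 and 4.32e-07). Between 15 and 60 min FAA1 fell by 1.70 ± 0.16, and FAA4 and FAA3 rose by 1.23 ± 0.16 and 1.82 ± 0.18 (adjusted p = 2.07e-06, 3.42e-05 and 2.49e-06), where FAA2 moved by 0.11. FAT1, a very-long-chain synthetase and uptake gene, rose by 1.25 ± 0.13 (adjusted p = 2.69e-07) at 15 min. Of 5 genes for peroxisome fission and inheritance, FIS1 and DNM1 of the fission machinery rose by 1.94 ± 0.13 and 1.28 ± 0.13 at 15 min (adjusted p = 1.32e-09 and 2.81e-07). INP1, which retains peroxisomes in the mother cell, rose by 0.47 (adjusted p = 0.0370), a call lost without the wild-type glucose library or either 15 min library (adjusted p up to 0.456), with library totals (0.0679) or upper-quartile factors (0.115) and in DESeq2 (0.157). INP2, the peroxisomal receptor for the myosin that carries them to the bud, fell by 1.01 ± 0.17 on the log2 scale (adjusted p = 6.06e-05).

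The second comparison asked whether the spp1 deletion changed transcription of these genes. Of the 30 members 1 was called, PEX34, lower in the deletion, which is 3.33% of members beside 1.83% of all genes (1.1% higher, 0.733% lower). The all-gene split turned with the scaling, from 57 higher and 38 lower to 58 and 81 with library totals and 70 and 86 with upper-quartile factors. No member was called higher by edgeR, limma or DESeq2, and 3 members, PEX34, FAA2 and PEX11, had an unadjusted edgeR p under 0.05. The median genotype difference was 0.03 over members and 0.00 over all genes tested. Member values ran from -0.57 to 0.38.

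PEX34 (YCL056C, chromosome III, 26925 to 27359) held 271, 122 and 179 counts in the wild type and 302, 90 and 104 in the deletion. Its levels were 106, 100.0 and 115 CPM in the wild type and 74.0, 57.0 and 85.4 CPM in the deletion, so that the 3 deletion libraries all lie below the 3 wild-type libraries. The difference was -0.57 ± 0.13 on the log2 scale (edgeR adjusted p = 0.0326). The glucose pair alone gave -0.51, with an exact 95% counting interval from -0.75 to -0.27. The 15 min pair gave -0.81 (interval -1.22 to -0.41), and the 60 min pair gave -0.43 (interval -0.80 to -0.08). The call was lost without either glucose library or either 15 min library (log2 between -0.63 and -0.48 over the 6 fits, adjusted p up to 0.115), without the glucose pair (adjusted p = 0.0760) or the 15 min pair (0.0976), and in DESeq2 (0.384).

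**Figure D4:**
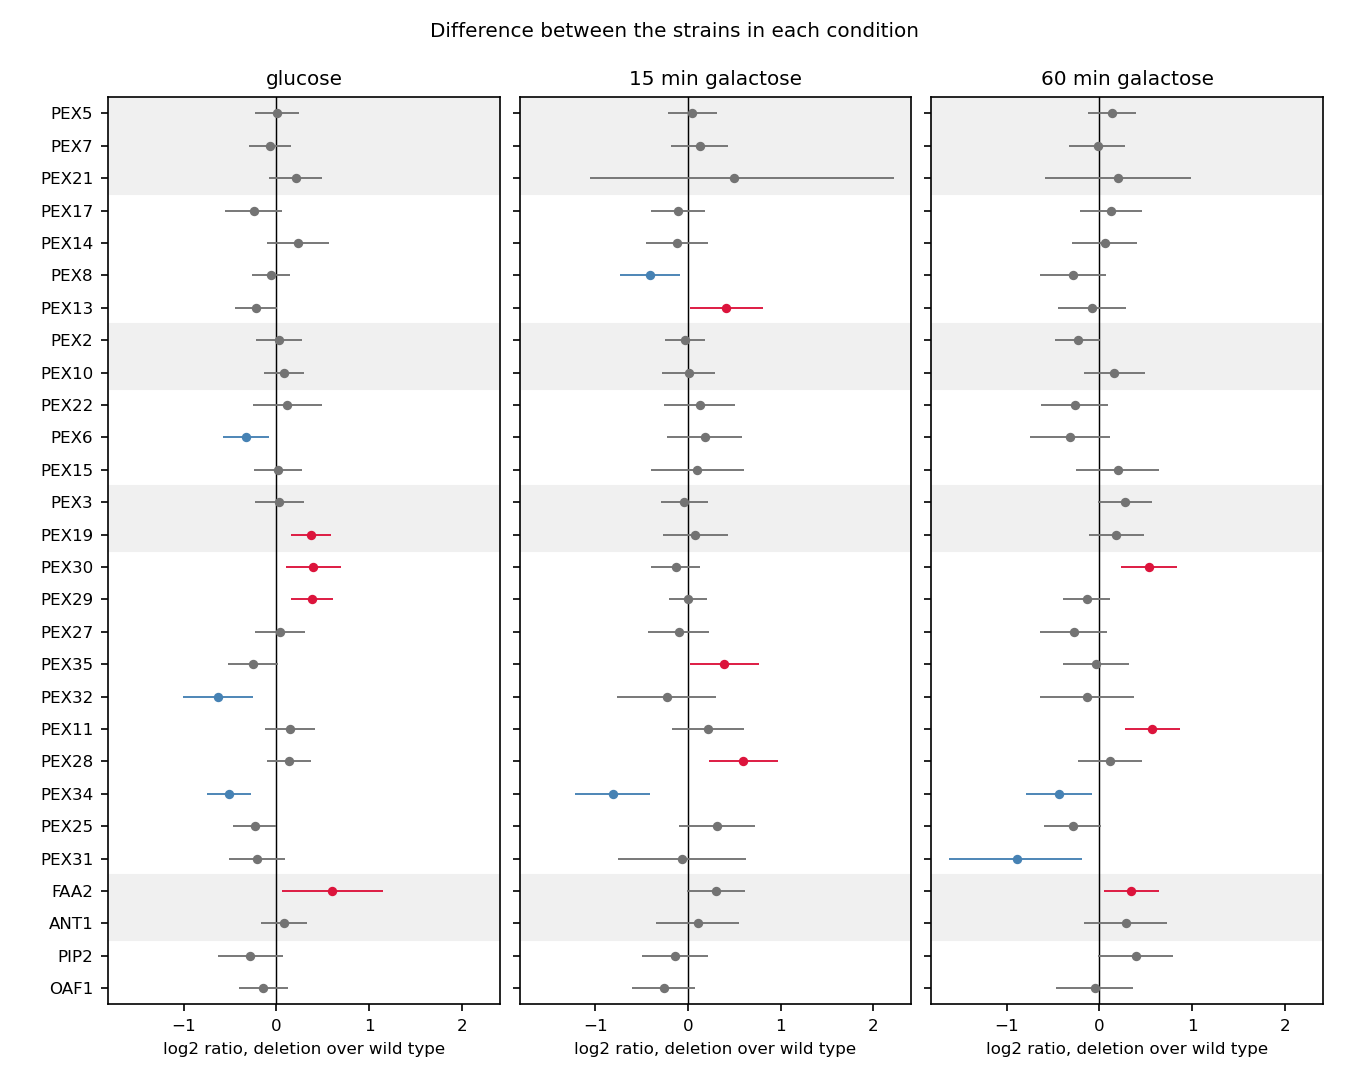
Log2 ratio of CPM in the spp1 deletion over the wild type (x axis) for 28 of the 30 genes (rows, shaded by role as in the plot of changes by strain) in glucose, at 15 min and at 60 min in galactose; bars are exact 95% counting intervals of 1 library pair, red where the interval lies above 0, blue where it lies below and grey where it holds 0. PEX34 is the gene whose interval lies below 0 in all 3 conditions, and no gene has an interval above 0 in all 3.

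FAA2 had the highest genotype value, 0.38 ± 0.13 (edgeR adjusted p = 0.190). Its 3 pairs gave 0.60 (counting interval 0.065 to 1.15) for glucose, 0.30 (-0.012 to 0.61) for 15 min and 0.34 (0.045 to 0.64) for 60 min. PEX11 was at 0.31 ± 0.13 (adjusted p = 0.278), and its pairs gave 0.14 (-0.13 to 0.42), 0.22 (-0.17 to 0.61) and 0.57 (0.28 to 0.87) in the same order. PEX32 was at -0.37 ± 0.17 (adjusted p = 0.371) and PEX31 at -0.33 ± 0.19 (adjusted p = 0.488). Without either 60 min library PEX11 was at 0.17 and PEX31 at -0.17, and without the deletion or wild-type glucose library PEX32 was at -0.18 or -0.19. The largest size in a single condition was that of PEX31 at 60 min, -0.89 (-1.63 to -0.19), which rests on 59 and 25 counts. PEX28, PEX30, PEX21, PEX19 and PEX8 were at 0.26, 0.25, 0.23, 0.23 and -0.23 (adjusted p between 0.415 and 0.672). With 1 library left out PEX28 ran from 0.12 to 0.34, PEX30 from 0.12 to 0.46, PEX19 from 0.13 to 0.29 and PEX8 from -0.35 to -0.15. The extremes came without a 15 min library for PEX28 (low), PEX30 (high), PEX19 (high) and PEX8 (smallest), without a 60 min library for PEX30 (low), and otherwise without a glucose library. The other 20 members lay within 0.2 of 0.

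In each condition, with 1 library per strain and so no test, 0 of the 30 members differed by 2-fold or more in log2 CPM (prior count 2). Among all genes 1.21% did in glucose (0.848% higher, 0.366% lower), 2.26% at 15 min (1.58% and 0.675%) and 1.7% at 60 min (1.2% and 0.501%). The counting interval lay above 0 for 4 members and below for 3 in glucose (FAA2, PEX19, PEX29 and PEX30 above, PEX6, PEX32 and PEX34 below). At 15 min it lay above for 3 (PEX13, PEX28, PEX35) and below for 2 (PEX8, PEX34), and at 60 min above for 4 (FAA2, PEX11 and PEX30 among them) and below for 2 (PEX31, PEX34). Over all genes the interval lay above 0 for 17.6% and below for 15.7% in glucose, for 12.1% and 12% at 15 min, and for 14.5% and 13.9% at 60 min. Across the 3 conditions 9 members were higher in the deletion each time, 5 lower each time and 16 mixed, where 18.1% of all genes were higher and 17.9% lower each time. Of the other genes of the pathway, FAA3 was called lower in the deletion (log2 -0.60 ± 0.13, edgeR adjusted p = 0.0249), but not by DESeq2 (0.165). FAA3 stood at 159, 63.9 and 197 CPM in the wild type and 119, 31.0 and 131 CPM in the deletion. The other 26 genes of these lists were not called. Over all 27 the genotype values ran from -0.60 to 0.78, with a median of 0.05. The highest value, larger in size than that of FAA3, had an edgeR adjusted p of 0.0565.

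The third comparison set the response to galactose in the deletion against that in the wild type, again with 1 library per group and no test. None of the 30 responses differed by 2-fold at either time, where 2.49% of all genes did at 15 min and 2.41% at 60 min. The change had the same sign in both strains for 25 members at 15 min and 27 at 60 min, and for 91.9% and 88.6% of all genes. Across the 30 genes, which are not independent and share the depth of their libraries, the changes in the 2 strains correlated with a Pearson r of 0.964 at 15 min and 0.929 at 60 min, beside 0.979 and 0.960 across all genes. The differences in response ran from -0.52 (PEX30) to 0.64 (PEX35) at 15 min and from -0.65 (PEX31) to 0.66 (PIP2) at 60 min on the log2 scale. PEX35 moved by 0.02 in the wild type and 0.66 in the deletion at 15 min, and PIP2 by 0.46 and 1.12 at 60 min. PEX30 moved by 1.69 and 1.17 at 15 min, and PEX31 by -0.67 and -1.33 at 60 min.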

How the data were processed

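The authors deposited whole-number read counts per gene for 6 NET-seq libraries, used as deposited. Per the submitters' processing notes reads were aligned with Bowtie to sacCer3; no version, counting tool, strand setting or annotation is given in the sources used here. Of 5219 identifiers 5116 matched a RefSeq table of assembly R64, the assembly of sacCer3, and 103 did not; 3 lines were emptied. Totals ran from 1162190 to 4167249, so that 1 count equals 0.240 to 0.860 CPM.

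Genes with a mean count of at least 10 (5186) were fitted with edgeR 4.0.16 (TMM factors 0.9397 to 1.063, quasi-likelihood test, Benjamini-Hochberg at 0.05) in R 4.3.3; common dispersion was 0.00979. Counting intervals are exact 95% binomial (pairs) or Poisson (levels), and the 2-fold rule used log2 CPM with a prior count of 2. Alternatives were other scalings and filters, limma 3.58.1 (voom), DESeq2 1.42.0, each library or condition left out, the right part of chromosome XI left out, and a threshold of 0.01. Members, lists and tests were chosen with earlier results of these data known. Every member may be named, but 2 are counted among the 30 and not reported one by one here; of other genes, up to 4 per list by size of the 15 min change, any called with genotype, and SPP1. Uncalled values under 0.2 were not followed one by one through the alternatives. Promoter and protein sequences were not used here.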

Additional observations from a re-analysis of the deposited data

Results flagged for a closer look

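For 6 results among the 28 members reported by name, the changes after the transfer to galactose had opposite signs in wild type and deletion. The 2 members not reported by name are left out of this count. Some of the changes were close to 0. With 1 library per strain the difference was not tested, and in 0 of the 6 did the counting intervals of both strains exclude 0.

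At 15 min the difference in response (deletion minus wild type, log2) was 0.62 for PEX13, which went by -0.62 in the wild type and 0.0042 in the deletion. It was 0.50 for PEX6 (-0.36 and 0.14), 0.46 for PEX28 (-0.25 and 0.21) and -0.35 for PEX8 (0.0065 and -0.34). At 60 min it was 0.094 for OAF1 (-0.081 and 0.013) and 0.084 for PEX10 (-0.056 and 0.027).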

How the results depend on the processing

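No paired analysis was possible because the labels give no replicate numbers; the fit already compares the strains within each condition. The 75 member values followed (called, or at least 0.2 in size) kept their direction in all 1220 comparisons with the main fit. These include the 0.01 threshold, which leaves the fit and so the direction unchanged. The values were also chosen by their call or size in the main fit, which favours a stable direction. The 45 member values that were uncalled and under 0.2 have no stable direction in general, since 28 of them changed sign in at least 1 alternative. Of 22 calls given for other genes of the pathway 20 were kept. Of 47 calls, 29 were kept in every alternative (14 of 18 at 15 min, 12 of 20 at 60 min, 3 of 8 between the times, 0 of 1 for genotype). Members called lower with genotype numbered 0, against 1, in DESeq2, without the glucose or the 15 min libraries and at the 0.01 threshold; those lower at 60 min numbered 2, against 4, in DESeq2 and at 0.01; those lower from 15 to 60 min numbered 0, against 4, with library totals, in DESeq2 and at 0.01, and 1 with upper-quartile factors. The cause was not tested. Refits with fewer libraries estimate the spread anew, so their calls are not like for like with those of the main fit. With 1 library left out, counts ran from 11 to 15 higher and 3 to 5 lower at 15 min, 12 to 16 and 2 to 4 at 60 min, 3 to 4 and 0 to 6 between the times, and 0 to 0 and 0 to 1 for genotype. Over all genes 57 were called higher and 38 lower with genotype; the lower count was 12 in DESeq2 and at 0.01, 25 with RLE factors or a mean of at least 50 counts, 81 with library totals, 86 with upper-quartile factors and 84 without the 60 min libraries, and the higher count was 93 without the 15 min libraries and 34 at 0.01. With 1 library left out these ran from 39 to 107 higher and 18 to 88 lower. From 15 to 60 min, 835 genes were lower, with 547 by library totals, 514 by DESeq2, 537 at 0.01 and 555 without the wild-type 15 min library. No member reached 2-fold between the strains, or in the difference of response, with prior counts of 0.5 or 10, library totals or RLE factors; a prior count of 10 left 45, 58 and 47 of all genes in glucose and at 15 and 60 min, in place of 63, 117 and 88, and 67 and 82 for the responses in place of 129 and 125. Planned promoter motif and protein steps were not run. Counts of 6 and 11 for PEX21 at 15 min limit its precision most.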
